A study of Mus musculus with 16 samples.

Results

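The genes described here encode AP-1, a family of dimeric transcription factors, and the measurements are the ATAC-seq peaks that lie nearest to them. The family was taken as 10 genes: Fos, Fosb, Fosl1 and Fosl2 of the Fos group, Jun, Junb and Jund of the Jun group, and Atf3, Batf and Batf3. A peak was counted for a gene when, of all protein-coding transcription start sites, that gene's start was the nearest to the peak's centre. By this rule 79 of the 80367 listed peaks belonged to AP-1 genes. Of the 10 genes, 8 had at least 1 such peak (66.8% of all protein-coding genes had one), and Fosl1 and Batf3 had none.

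ATAC-seq marks accessible chromatin, since the Tn5 transposase inserts sequencing adaptors where DNA is not packed away. The SCLC (small cell lung cancer) cells were sorted from the tumors of TKO;Hes1 GFP/+ mice, which carry floxed Rb, p53 and p130 alleles, deleted in the lung by an adenovirus that expresses Cre from the CMV promoter, and a GFP reporter at the Hes1 locus. GFPhigh cells are the non-neuroendocrine (non-NE) and GFPneg cells the neuroendocrine (NE) cells, so both groups share the 3 deletions and differ in the reporter signal by which they were sorted. Tumors of each mouse were pooled before sorting. The labels and the deposited description give 4 pairs of GFPhigh and GFPneg populations from 3 mice, 1 of them a technical replicate, as 8 libraries on 2 lanes each. The authors' deposited tables hold 1 set of values per peak for the whole comparison, not 1 per library, so no SD, n or library-level spread can be given for a peak. Each log2 fold change below is the authors' estimate for GFPhigh over GFPneg cells and is followed by its standard error (SE). Whether lanes and the technical replicate were summed first is not known. If they were counted as separate samples, the SEs and adjusted p-values are too small as measures of the spread between the 3 mice. A peak is called opened where it was more accessible in GFPhigh cells and closed where it was less accessible. The tables hold only peaks past an adjusted p of 0.001 and an absolute log2 fold change of 1. A peak that is not in them may be equally accessible in both groups or below these limits.

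AP-1 proteins bind DNA as pairs held together by a leucine zipper. Fos proteins need a Jun partner, whereas Jun proteins can also pair with each other. The pairs recognise the TRE (TGACTCA or TGAGTCA) and, with ATF partners, the CRE (TGACGTCA). Fos, Fosb, Junb and Atf3 are immediate early genes, switched on within minutes of a growth factor or stress signal without new protein synthesis. At the Fos promoter this response runs through serum response factor, SRF, which binds a sequence called the CArG box together with ternary complex factors. Jun is activated by phosphorylation through the JNK kinases and raises its own transcription. Batf and Batf3 lack a transactivation domain and are best known from lymphocytes and dendritic cells.

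The sequences shown first are the CArG boxes, since they are the known entry point of growth factor signals at these genes. All 5 peaks of AP-1 genes that held a CArG box, searched over the whole peak on both strands, were opened, against 54.2% of the 1249 listed peaks with such a box, and they belonged to Fos, Fosb and Junb. With or without the box, 40 of the 48 peaks of the family outside Jun were opened, or 83.3%, so 5 of 5 is near that share. The 2 that are promoter peaks are printed whole and the other 3 with 12 bases on either side, all 5′ to 3′ along the gene's own strand, from the GRCm38.p6 assembly, to which the mm10 coordinates refer. Capitals mark the CArG box.
Fos promoter peak, chr12:85473436-85473663, plus strand: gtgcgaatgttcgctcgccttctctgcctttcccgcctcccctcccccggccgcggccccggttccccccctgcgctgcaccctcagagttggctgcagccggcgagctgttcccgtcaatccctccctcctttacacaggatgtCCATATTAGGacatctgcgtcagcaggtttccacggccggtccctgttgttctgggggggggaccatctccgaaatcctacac
Fosb promoter peak, chr7:19310228-19310520, minus strand: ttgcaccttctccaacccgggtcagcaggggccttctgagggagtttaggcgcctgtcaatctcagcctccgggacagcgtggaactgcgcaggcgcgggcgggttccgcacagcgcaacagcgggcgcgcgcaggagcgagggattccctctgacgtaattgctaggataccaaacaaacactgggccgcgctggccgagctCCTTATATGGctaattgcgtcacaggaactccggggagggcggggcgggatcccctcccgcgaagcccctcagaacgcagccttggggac
Fos downstream peak, chr12:85486102-85486135, plus strand: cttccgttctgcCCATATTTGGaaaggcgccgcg
Junb upstream peak, chr8:84980147-84980180, minus strand: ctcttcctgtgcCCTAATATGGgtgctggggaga
Junb downstream peak, chr8:84976612-84976645, minus strand: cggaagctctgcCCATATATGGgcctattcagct

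These 5 peaks had log2 fold changes of 1.10 (SE 0.18) for the Fos promoter, 1.12 (SE 0.19) for the Fosb promoter, 1.16 (SE 0.17) for the peak 12.2 kb downstream of the Fos start, 1.12 (SE 0.16) for the peak 1.35 kb upstream of Junb and 1.32 (SE 0.16) for the peak 2.24 kb downstream of the Junb start. All 5 differences were thus modest, close to the limit of the tables, and of nearly the same size. Over whole peaks, 5 of the 79 AP-1 gene peaks held a CArG box, or 6.33% (95% Wilson interval 2.73 to 14.0), against 1.55% of all listed peaks. In the central 200 bp, which makes peaks of different widths comparable, the count was 3 of 79, against 1.03% of all listed peaks. A match of letters is a description and does not show that SRF was bound.

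Of the 79 peaks, 54 were opened and 25 closed. This is a share of 68.4% opened, with a Wilson interval of 57.5 to 77.6% that covers counting error only, since neighbouring peaks of 1 gene are not independent. Among all listed peaks 50.8% were opened. Jun alone had 31 peaks, 17 of them closed, and thus 68.0% of the closed peaks of the family. Without Jun, 40 of 48 peaks were opened, or 83.3%. More opened than closed peaks were found at 7 of the 8 genes with peaks, against 54.9% of all genes that have a peak. Only Jun had more closed peaks. A change in the share of cells with an open site cannot be told apart from a change of accessibility in each cell.

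The median log2 fold change of the 54 opened peaks was 1.75, against 2.92 over all opened peaks, and that of the 25 closed peaks was −2.53, against −2.66. A log2 fold change under 1.5 was found for 20 opened AP-1 gene peaks, or 37.0%, against 13.8% of all opened peaks. At the other end, 7 of them, or 13.0%, passed a log2 fold change of 4, against 23.3%. The opened peaks of the family were therefore mostly smaller in fold change than the typical opened peak, and they also had higher counts. The median mean normalized count, which is the authors' average over all libraries after scaling by size factors, was 101 for the opened AP-1 gene peaks and 40.7 for all opened peaks. It was 39.7 for the closed AP-1 gene peaks and 25.8 for all closed peaks. The mean counts of the family ranged from 6.71 to 1026. The highest belonged to the Jund promoter, and only 0.0846% of all listed peaks had a higher one.

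**Figure D1:**
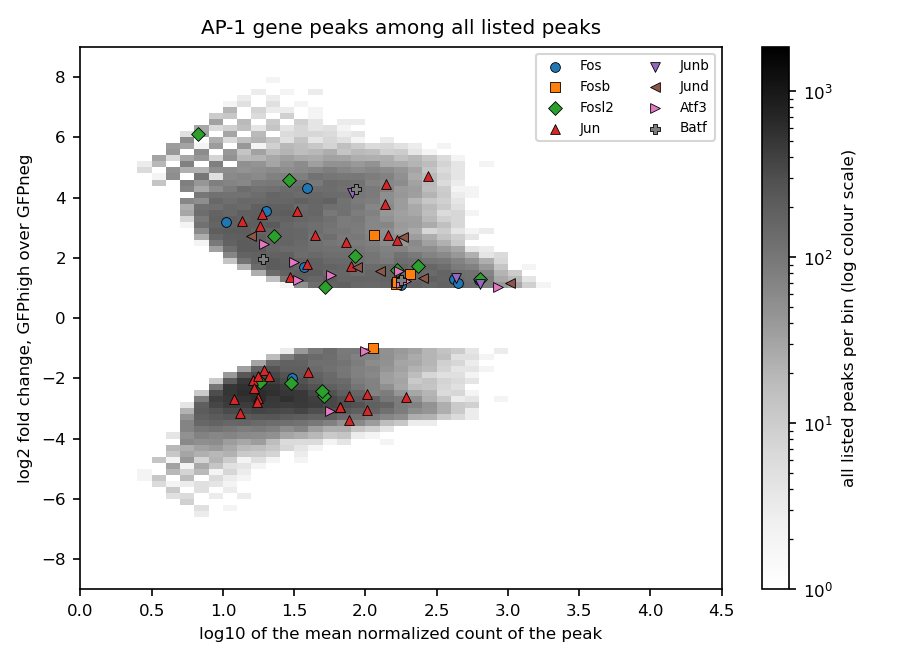
Authors' log2 fold change (GFPhigh over GFPneg, y axis) against the log10 of the mean normalized count (x axis) for the 79 AP-1 gene peaks, coloured by gene, over all 80367 listed peaks in grey (number per bin, log colour scale). The highest count of the family, 1026 at the Jund promoter, lies at a log2 fold change of 1.15, and the Jun peak at 4.71 has a count of 273. The empty band is the authors' limit of 1 on the absolute log2 fold change.

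The opened share fell with distance from the start site, both for the family and for all peaks. Within 1 kb of the gene's own start, all 11 AP-1 gene peaks were opened (Wilson interval 74.1 to 100%), against 74.3% of all listed peaks at this distance. Between 1 and 10 kb, 16 of 18 were opened, or 88.9%, against 58.8%. Between 10 and 50 kb the count was 16 of 23, or 69.6%, against 52.3%. Beyond 50 kb it was 11 of 27, or 40.7%, against 37.1%. The Wilson intervals included the share of all peaks in the first class, in the third (49.1 to 84.4%) and in the last (24.5 to 59.3%), and lay above it between 1 and 10 kb (67.2 to 96.9%). Had the AP-1 gene peaks been opened at the rates of all listed peaks in the same 4 distance classes, 51.7% of them would have been opened. Weighted in the same way to the peaks without Jun, the figure was 57.8%, beside the 83.3% observed.

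**Figure D2:**
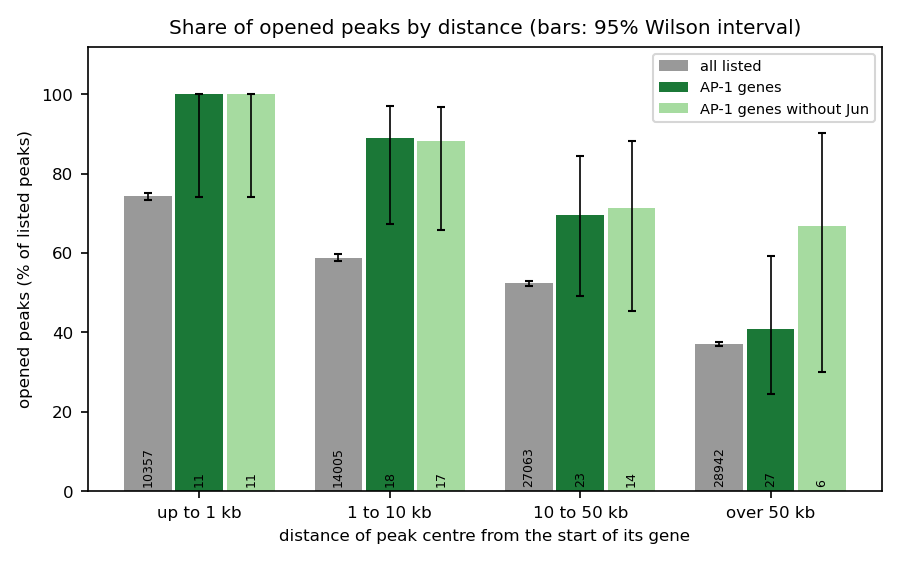
Share of listed peaks that were opened (y axis, %) by the distance of the peak's centre from the start of its gene (x axis), for all listed peaks, the AP-1 genes and the AP-1 genes without Jun. Bars show the share, whiskers the 95% Wilson interval, and the number inside each bar is its count of peaks. The AP-1 gene bars lie above the grey bars in all 4 classes, but between 1 and 10 kb alone does the whole interval of the AP-1 genes, 67.2 to 96.9%, lie above the share of all peaks.

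At the start sites themselves all listed peaks of the family were opened. An opened peak within 1 kb of the gene's own start was found for 5 of the 10 members (Fos, Fosb, Fosl2, Jund and Atf3), where 26.7% of all protein-coding genes had one. No member had a closed peak there, where 8.46% of all genes had one. The 11 promoter peaks had log2 fold changes from 1.05 to 2.07 with a median of 1.25, below the median of 1.64 over all opened promoter peaks. The only one above 2 lay 0.675 kb inside Fosl2 (2.07, SE 0.24). The promoter peaks of these 5 genes thus changed by small amounts in a common direction.

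Fos, the founding member of the family, had 8 opened and 1 closed peak on chromosome 12. Its promoter peak (1.10, SE 0.18) had a mean normalized count of 176. The lowest adjusted p at Fos was found 18.5 kb upstream, in a peak with a high mean normalized count of 623 and a small fold change (1.26, SE 0.14). A peak 21.8 kb upstream was similar in both respects (count 418, log2 fold change 1.29, SE 0.16). The largest change at Fos was found 8.81 kb upstream (4.32, SE 0.52), in a peak with a count of 39.1, near the median of 40.7 over all opened peaks. The farthest peak lay 60.5 kb downstream, in an intron of the noncoding gene Gm32296 (3.54, SE 0.55). The single closed peak lay 37.5 kb upstream (−2.00, SE 0.38), within 1 kb of the start of another noncoding gene, Gm40477.

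Fosb, a close relative of Fos that is induced by the same signals, had 5 peaks on chromosome 7. Both promoter peaks were opened, at 0.323 kb upstream (1.12, SE 0.19) and 0.900 kb downstream of a start (1.18, SE 0.22). The largest change was at 6.92 kb upstream (2.76, SE 0.27), where the authors' adjusted p from the DESeq2 Wald test was 1.74e-23. At 17.3 kb upstream the log2 fold change was 1.48 (SE 0.17). The only closed peak, 11.6 kb upstream (−1.01, SE 0.26), was the one of the whole family closest to the limit of 1.

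Fosl2, which encodes Fra-2, had 8 opened and 4 closed peaks on chromosome 5. Its 3 promoter peaks were opened, with log2 fold changes of 1.59 (SE 0.24) at 0.685 kb upstream, 1.30 (SE 0.14) at 0.081 kb upstream and 2.07 (SE 0.24) at 0.675 kb downstream. The second of these also had the lowest adjusted p of the opened Fosl2 peaks and spanned the start site with a mean normalized count of 639. Of the closed peaks, the one of lowest adjusted p lay in an intron of Fosl2, 5.41 kb downstream of the start (−2.58, SE 0.38). The largest fold change of the family was listed 104 kb upstream, inside an intron of the neighbouring gene Babam2 (6.12, SE 1.23), but this peak had the lowest mean count (6.71) and the largest SE of all 79. The farthest Fosl2 peak, 204 kb upstream and also within Babam2, had a log2 fold change of 4.58 (SE 0.58). Peaks within Babam2 were counted for Fosl2 only because its start was the nearest.

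Junb, which often restrains the activity of Jun, had 3 peaks on chromosome 8, and all were opened. The log2 fold changes were 4.14 (SE 0.33) at 3.34 kb upstream, 1.12 (SE 0.16) at 1.35 kb upstream and 1.32 (SE 0.16) at 2.24 kb downstream. The first was a narrow peak with a count of 80.4, and the other 2 were strong peaks with counts of 639 and 435. None of the 3 lay within 1 kb of the start.

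Jund, the most constantly expressed Jun gene in most tissues, had 6 peaks, all opened and all within 7.03 kb of its start on chromosome 8. The peak over the start (centre 100 bp downstream) was the strongest of the family, with a mean normalized count of 1026 and a log2 fold change of 1.15 (SE 0.17). The second promoter peak, 0.502 kb upstream, had 1.32 (SE 0.17). The lowest adjusted p belonged to the peak 3.38 kb upstream (2.68, SE 0.27), and the farthest and largest in fold change was a weak peak 7.03 kb upstream (2.72, SE 0.54). No closed peak was assigned to Jund or Junb, but the stretch of chromosome nearest to them is short, 15.0 and 10.2 kb, against 289 kb for Jun.

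Atf3, which is induced by cell stress, had 8 opened and 2 closed peaks on chromosome 1. Its annotation has 2 start sites, and the 3 promoter peaks lay at the inner one. They were opened by 1.25 (SE 0.34) at 0.578 kb upstream, 1.05 (SE 0.15) at 0.025 kb upstream and 1.44 (SE 0.31) at 0.807 kb downstream, and the middle one was a strong peak with a count of 854. At 6.46 kb upstream of the outer start the opened peak of lowest adjusted p (1.57, SE 0.20) lay over the start of the noncoding gene D730003I15Rik. The farthest Atf3 peak, 36.6 kb upstream, was closed and had the largest change (−3.10, SE 0.32).

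Batf had 3 opened peaks on chromosome 12. The peak 1.93 kb upstream changed by 4.29 (SE 0.34), and the 2 others lay in an intron, 17.0 kb (1.98, SE 0.47) and 19.0 kb (1.27, SE 0.20) downstream of the start. Fos and Batf lie 213 kb apart, with the gene of another AP-1 partner, Jdp2, between them. Jdp2, whose product represses AP-1 sites, had 14 opened and 1 closed peak.

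Fosl1, which encodes Fra-1, and Batf3 had no listed peak. The listed peak closest to the Fosl1 start was 9.95 kb away, at the promoter of Ccdc85b (1.36, SE 0.22). The closest to Batf3 was 22.7 kb away and belonged to Nsl1 (2.19, SE 0.31). Whether the start sites of these 2 genes were accessible in both populations cannot be read from the tables.

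**Figure D3:**
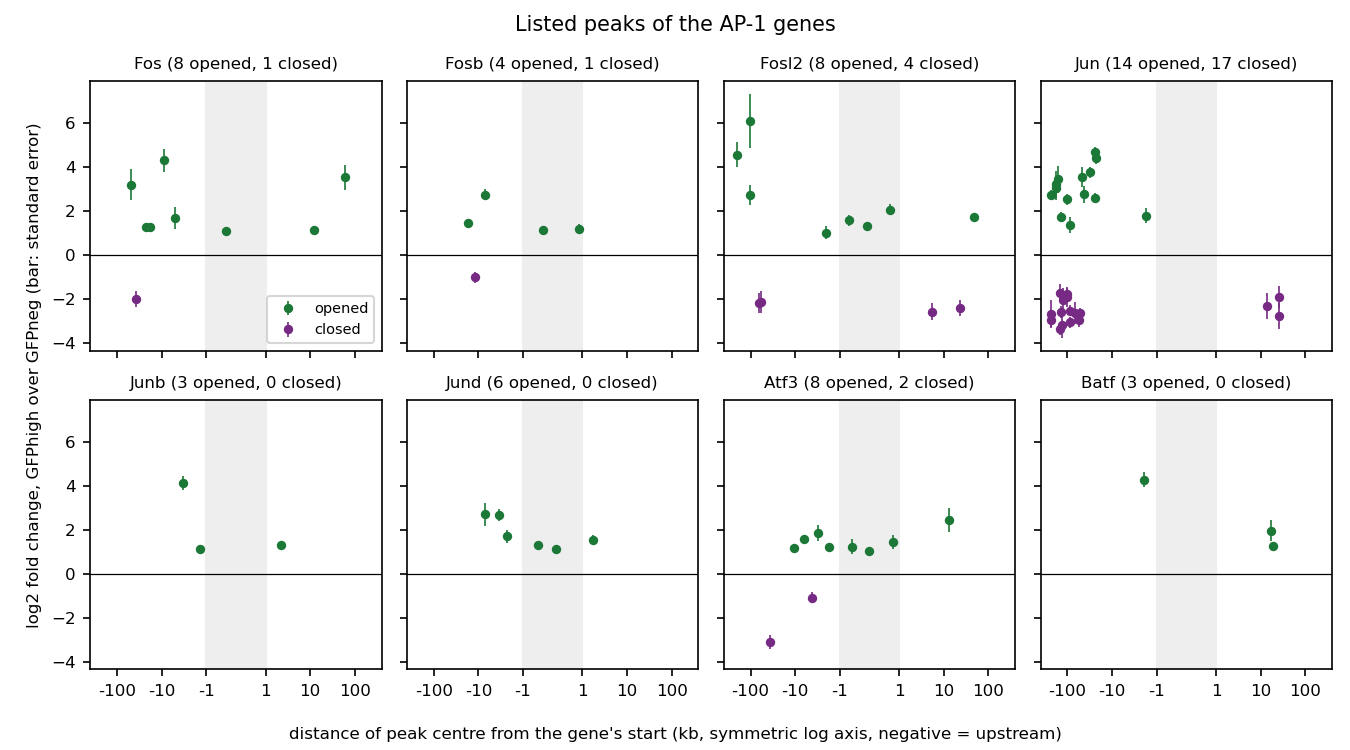
Authors' log2 fold change (y axis, GFPhigh over GFPneg, bars show the standard error) of every listed peak of the 8 AP-1 genes that had one, by the signed distance of its centre from the gene's start (x axis, kb, symmetric log scale, linear within 1 kb, which is shaded grey). Green points are opened and purple points closed; the shaded promoter zone holds 11 green and no purple points, and the closed points of Jun lie far upstream or downstream.

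Jun, the main partner of the Fos proteins, stood apart in number. The stretch of chromosome 4 to which its start is the nearest spans 289 kb, and the next protein-coding start upstream, that of Fggy, is 505 kb away. Jun had 31 peaks. Only 214 genes, or 1.47% of the genes with a peak, had as many. Per 100 kb of that stretch Jun had 10.7 listed peaks, fewer than Jund (40.0), Junb (29.5) and Fosb (18.5) in theirs and about as many as Atf3 (10.6), against 2.95 over the genome. Of the 31 peaks, 28 lay upstream. No listed peak was found within 1 kb of the Jun start, and the nearest, 1.73 kb upstream, was opened (1.78, SE 0.34).

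Directions at Jun differed along its upstream region. All 6 peaks between 22 and 48 kb upstream were opened, with log2 fold changes from 2.60 to 4.71 and a median of 3.67. Of the 8 peaks from 53 to 100 kb upstream, 7 were closed, and their median was −2.64. Farther out, 6 peaks were opened and 7 closed, and the 3 downstream peaks were all closed (−1.92 to −2.79). The zones were drawn after the values were seen and were not tested.

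The lowest adjusted p of the whole family was that of a peak in the first zone, 23.5 kb upstream of Jun at chr4:95075457-95076040. Its log2 fold change was 4.71 (SE 0.23), its mean normalized count 273 and the authors' adjusted p, by the DESeq2 Wald test, 9.27e-94. By the Wald statistic it ranked 80 of the 40828 opened peaks. On either side of it, peaks at 22.3 kb (4.44, SE 0.28), 24.3 kb (2.60, SE 0.22) and 30.4 kb upstream (3.78, SE 0.26) were opened as well. The 22 to 48 kb stretch holds 3 of the 4 annotated start sites of Junos, a noncoding antisense RNA that runs away from Jun, and the other lies 71.8 kb upstream. Of the 6 peaks, 3 lay within 1 kb of a Junos start, the first at 68 bp. Of the closed Jun peaks, the one with the lowest adjusted p and the largest change lay 146 kb upstream (−3.39, SE 0.28), in an intron of the noncoding gene Gm12708. The farthest peak, 238 kb upstream, was closed (−2.96, SE 0.29).

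**Figure D4:**
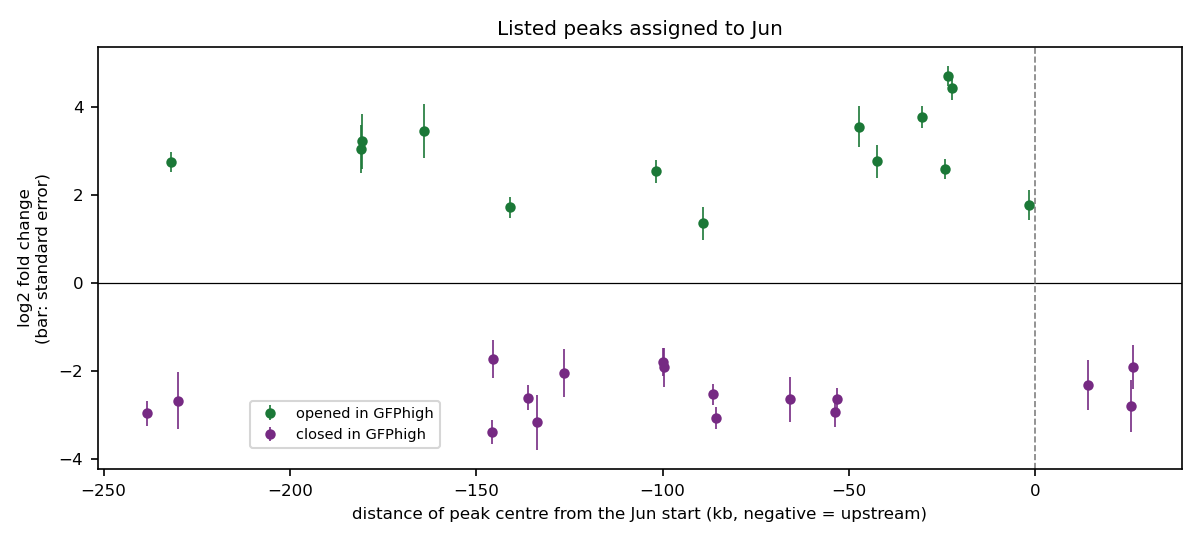
Authors' log2 fold change (y axis, bars show the standard error) of the 31 listed peaks assigned to Jun, by the distance of the peak's centre from the Jun start (x axis, kb, linear, negative is upstream, dashed line at the start). The 6 peaks between 22 and 48 kb upstream are all opened, and 7 of the 8 from 53 to 100 kb upstream are closed.

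This Jun peak held a match to the RBPJ sequence (CGTGGGAA or TGTGGGAA), the DNA site of the Notch effector RBPJ, off its centre. It is printed because Hes1, the gene that carries the reporter, is itself a Notch target. The stretch is chr4:95075928-95076055 on the minus strand, which runs slightly past the edge of the peak, and capitals mark the match, which reads in reverse along this strand.
Jun upstream peak: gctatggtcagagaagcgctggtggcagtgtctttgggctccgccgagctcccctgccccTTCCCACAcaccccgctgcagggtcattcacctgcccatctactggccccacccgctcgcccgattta
A match was also present in a closed Jun peak, 53.3 kb upstream (−2.64, SE 0.24). Over whole peaks 5 of the 79 AP-1 gene peaks held an RBPJ match, or 6.33%, against 3.47% of all listed peaks. By direction these were 4 of 54 opened peaks, or 7.41%, against 4.44%, and 1 of 25 closed peaks, or 4%, against 2.46%. In the central 200 bp the count was 2, or 2.53%, against 2.29%, and the Wilson interval of 0.697 to 8.77% includes the share of all peaks.

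The AP-1 proteins' own site, the TRE, was found in peaks of both directions. In the central 200 bp, 14 of the 79 peaks held one, or 17.7% (Wilson interval 10.9 to 27.6), against 14.7% of all listed peaks. Among the opened peaks of the family it was 7 of 54, or 13.0%, against 8.45% of all opened peaks. Among the closed peaks it was 7 of 25, or 28.0%, against 21.2% of all closed peaks. Both shares had Wilson intervals that include the share of all peaks of that direction, 6.42 to 24.4% and 14.3 to 47.6%. The matches lay at Fos, Fosb, Fosl2, Jun and Atf3. Of these, the 4 of each direction that had the lowest adjusted p are shown with 12 bases on either side, in GRCm38.p6 and along the gene's own strand, to set the same 7 letters in peaks of opposite direction side by side. Capitals mark the TRE.
Opened, Fosb 6.92 kb upstream, chr7:19316988-19317018, minus strand: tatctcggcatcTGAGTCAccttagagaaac
Opened, Fosb 17.3 kb upstream, chr7:19327336-19327366, minus strand: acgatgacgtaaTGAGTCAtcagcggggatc
Opened, Atf3 6.46 kb upstream, chr1:191224431-191224461, minus strand: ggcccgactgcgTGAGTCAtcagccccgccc
Opened, Jun 42.6 kb upstream, chr4:95094776-95094806, minus strand: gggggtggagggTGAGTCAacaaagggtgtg
Closed, Jun 53.3 kb upstream, chr4:95105556-95105586, minus strand: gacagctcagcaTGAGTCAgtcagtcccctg
Closed, Jun 136 kb upstream, chr4:95188220-95188250, minus strand: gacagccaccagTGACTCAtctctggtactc
Closed, Jun 99.9 kb upstream, chr4:95152143-95152173, minus strand: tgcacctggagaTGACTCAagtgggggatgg
Closed, Fosl2 64.9 kb upstream, chr5:32070938-32070968, plus strand: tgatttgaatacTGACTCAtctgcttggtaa

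The 4 opened peaks changed by 2.76 (SE 0.27), 1.48 (SE 0.17), 1.57 (SE 0.20) and 2.77 (SE 0.38) in the order shown, and the 4 closed ones by −2.64 (SE 0.24), −2.60 (SE 0.28), −1.80 (SE 0.32) and −2.17 (SE 0.46). The same 7 letters thus lay in Jun peaks of both directions. The 8 peaks were picked as 4 of each direction, so their split carries no information. By the shares above, a TRE was more frequent in closed than in opened peaks over all listed peaks (21.2% against 8.45%). The family had 28.0% against 13.0%, with overlapping Wilson intervals.

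The TEAD core (GGAATG, on either strand) was present in the centre of 13 of 79 AP-1 gene peaks, or 16.5%, against 13.5% of all listed peaks. By direction it was 10 of 54 opened peaks, or 18.5%, against 18.1%, and 3 of 25 closed peaks, or 12%, against 8.78%. In 3 peaks it stood beside a TRE in the same window. The FOX core (GTAAACA) was present in 4 peaks, or 5.06%, against 8.25%, and the CRE (TGACGTCA) in none, against 0.623%. Of the 9 members with an entry among the RefSeq promoter sequences of GRCm38.p6 (250 bases before to 50 after the start), none held a TRE, a CRE or a CArG box in that window, where 5.20%, 1.79% and 1.63% of all 32851 promoters held one, and Junb held a FOX core, as did 3.65% of all. Counts this low in 9 promoters are near those shares. The CArG box of the Fos promoter peak lies upstream of this window.

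By class, 21 of the 79 peaks lay within 1 kb of a start of any annotated gene, noncoding genes included, or 26.6%, against 16.1% of all listed peaks. The others were evenly split, with 29 in introns and 29 in intergenic sequence, and none in an exon. For 52 of the 79, and for 30 of the 31 of Jun, the nearest start of any gene was that of another gene that is not protein-coding. This is 65.8% of the AP-1 gene peaks, against 49.9% of all listed peaks. The GC content of the central 200 bp had a median of 59.8% for opened and 51.0% for closed peaks of the family, against 50.5% and 48.5% over all peaks.

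The genes that work with AP-1 were followed as lists of related genes. Of 23 genes of bZIP partners, the proteins that pair with AP-1 or share its sites, 22 had peaks, with 148 opened and 80 closed, or 64.9% opened against 50.8% of all listed peaks. Their median log2 fold change was 1.82, against 1.07 over all listed peaks. Creb5 had the most opened peaks (26, with 6 closed), and Maf the most closed (20, with 5 opened). Here and in the lists below, a gene with several promoter peaks is given by the 1 with the largest absolute log2 fold change. Those over 2 were all opened and belonged to Mafk (3.48, SE 0.23), Creb5 (3.46, SE 0.88), Mafg (3.41, SE 0.29), Nfil3 (2.10, SE 0.44), Jdp2 (2.07, SE 0.25) and Nfe2l1 (2.06, SE 0.20). Mafk and Mafg encode small Maf proteins, which pair with Nfe2l1 and its relatives.

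The kinases that act on AP-1 had 45 opened and 34 closed peaks at 10 of 12 genes, or 57.0% opened, with a median log2 fold change of 1.46. The Wilson interval of 46.0 to 67.3% includes the 50.8% of all listed peaks. Map3k1, at the top of the JNK cascade, had both the most opened and the most closed peaks of this list (11 and 17). Mapk10, the neuronal JNK3 gene, had 10 peaks, all closed, with a promoter peak at −2.57 (SE 0.65). The promoters of Mapk3, which encodes ERK1, and Mapk14, which encodes p38α, were opened by 2.13 (SE 0.24) and 2.08 (SE 0.37). The DUSP phosphatases that switch these kinases off had 30 opened and 53 closed peaks at 8 genes, or 36.1% opened against 50.8% of all listed peaks, with a median of −1.78. Dusp4 had the most opened peaks (11, with 14 closed) and Dusp6, which acts on ERK, the most closed (16, with 3 opened).

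The other immediate early factors and the SRF and ternary complex genes had 91 opened and 42 closed peaks at 15 of 16 genes, or 68.4% opened against 50.8% of all listed peaks, with a median of 1.87. Mrtfa, an SRF coactivator, had the most opened peaks (15, with 2 closed), and its relative Mrtfb had the most closed (9, with 14 opened) and a closed promoter peak (−2.71, SE 0.28). Ier3 had an opened promoter peak (2.83, SE 0.21), whereas those of Egr3 (−2.62, SE 0.35) and Egr4 (−2.47, SE 0.21) were closed. The immediate early promoters were thus not all opened. Known AP-1 target genes had 39 opened and 19 closed peaks at 14 of 15 genes, or 67.2% opened, again against 50.8%, with a median of 1.94. Ccnd1 and Cd44 had 9 opened peaks each, and Dcn had the most closed (6). The promoter of Il6 was opened (3.79, SE 0.58) and that of the collagenase gene Mmp13 closed (−2.56, SE 0.52).

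**Figure D5:**
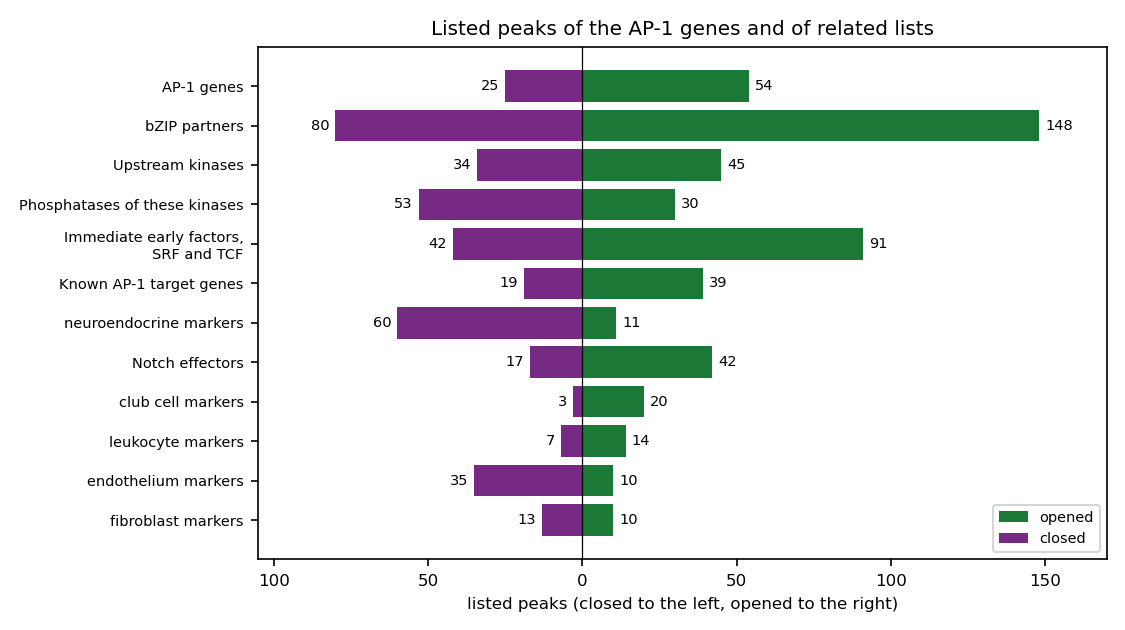
Number of listed peaks that were opened (green, right of 0) and closed (purple, left of 0) for the AP-1 genes and for each related list, with the count beside each bar (x axis, listed peaks). The AP-1 genes have 54 opened and 25 closed peaks, the phosphatases (30 and 53), neuroendocrine markers (11 and 60), endothelium (10 and 35) and fibroblast markers (10 and 13) have more closed than opened peaks.

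The sort was checked at marker genes. The 8 neuroendocrine genes had 60 closed and 11 opened peaks, or 15.5% opened against 50.8% of all listed peaks. Chga alone held 8 of the 11 opened peaks, beside 6 closed ones, and Syp had no listed peak. The Hes1 promoter was opened (2.99, SE 0.22). Beside the AP-1 gene results, 3 club cell genes had 20 of 23 peaks opened, or 87.0%, with a median of 4.42, and 3 endothelial genes had 10 of 45, or 22.2%. Of the peaks of 6 leukocyte genes 14 of 21 were opened, or 66.7%, with 16 of the 21 at Ptprc and no listed peak at Itgam, and of those of 4 fibroblast genes 10 of 23, or 43.5%. The Wilson intervals of the leukocyte genes, 45.4 to 82.8%, and of the fibroblast genes, 25.6 to 63.2%, include the 50.8% of all listed peaks. Single genes weighed heavily in these lists. Cdh5 held 23 of the 35 closed endothelial peaks, beside 2 opened. Kdr had 7 opened, its promoter among them (1.68, SE 0.17), and 11 closed, and Pecam1 had 1 of each. Of the fibroblast genes, Col1a1 had 7 opened peaks only, Pdgfra 5 and Col1a2 2 closed peaks only, and Dcn 3 opened and 6 closed. The methods of the study stain the digested tumors for CD45, CD31 and TER-119, which mark leukocytes, endothelium and red blood cells for removal, and for CD24 to select tumor cells. The part that other cells in the GFPhigh sort had in the AP-1 gene peaks was not tested.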

How the data were processed

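ATAC-seq was performed on sorted GFPhigh and GFPneg cells of mouse SCLC tumors. The authors trimmed the reads, mapped them to mm10 with Bowtie2 2.3.4.1, removed duplicates, called narrow peaks with MACS2 shifted for the Tn5 insertion, merged the peaks of all samples, counted reads per peak and compared the groups with DESeq2 1.28.1. Whether lanes and the technical replicate were summed before the comparison is not given in the sources used here. The deposited signal is the mean count over all libraries after scaling by size factors. The deposited log2 fold changes and standard errors refer to GFPhigh over GFPneg cells, the deposited score is the Wald statistic, and the deposited p-values come from that test, adjusted by the Benjamini-Hochberg method. All of these columns belong to the authors' own comparison, and they are the only measurements in the files. They were described and not refitted. Depth per library is unknown.

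Peaks were assigned to the nearest protein-coding start site of the basic GENCODE annotation (vM21), using pysam 0.24.0, pandas 2.3.3, numpy 2.4.6, scipy 1.17.1, matplotlib 3.10.9 and Python 3.11.15. Coordinates are 1-based on mm10 and lie within the GRCm38.p6 chromosomes, from which the sequences were read. Motifs were searched without mismatches on both strands in the central 200 bp. Shares carry 95% Wilson intervals, which cover counting error only. The assignment and the motif search were tested on simulated data. The members, the lists and the motifs were chosen with earlier results of these data known, so the counts are descriptions and no test was run. All 10 members are named, with every peak where a gene has 5 or fewer. For other members these were the promoter peaks, the peak of lowest adjusted p in each direction, the largest change, and the nearest and farthest peak. For the lists the genes with the most opened and the most closed peaks and any with a promoter peak over 2 in absolute log2 fold change are named. Further peaks of Fos and Jun, those with a motif, and Jdp2 as a neighbour were named after their values were seen. As alternatives, the fold change and adjusted p limits were tightened, and the following were tried: other assignments of peaks to genes, merging of neighbouring peaks, leaving out Jun, the whole peak for motifs and a promoter distance of 3 kb. Of the leukocyte list, 1 gene is not reported here.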

Additional observations from a re-analysis of the deposited data

How the results depend on the processing

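Of 35 alternative values for the AP-1 gene peaks, 24 stayed near the reported value (counts within 1.5 times, shares within the Wilson interval, medians within the median standard error), and 11 moved. None of the 7 alternative medians changed sign. Since every listed peak passes the limit of 1 in absolute log2 fold change, that sign only restates whether opened peaks were the majority. With an absolute log2 fold change over 2, 43 of the 79 peaks remained, of which 55.8% were opened (46.9% of all listed peaks), with a median log2 fold change of 2.54 and 11.6% in promoters. With noncoding start sites included in the assignment, 27 peaks remained, of which 96.3% were opened, 3.70% held a TRE and 40.7% lay in promoters. Of all listed peaks that likewise kept their protein-coding gene as the nearest, 57.7% were opened. Without Jun, 48 peaks remained, of which 83.3% were opened. With a promoter distance of 3 kb, 43.0% of the peaks were promoter peaks. In each of the first 3 settings the construction itself removes peaks. With an adjusted p under 1e-05, 74.6% of the family's peaks were opened, against 54.4% of all listed peaks. Within 100 kb of a start it was 71.4% against 55.7%, and with neighbouring peaks merged 67.1% against 50.4%. Measured from the nearer edge of the peak, the family's share stayed at 68.4%. No intervals were computed for these alternative shares. Whether the 55.8% against 46.9% above goes beyond counting error is therefore not known. No paired analysis was possible because the deposited values are of the authors' whole comparison, with none per library, so the authors' test could not be refitted with the pairs.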
